A study of Mus musculus with 2 samples.

Results

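The genes followed here are *Tinagl1*, which encodes the secreted matrix protein tubulointerstitial nephritis antigen-like 1, and 9 genes of the basement membrane, *Nid1*, *Nid2*, *Hspg2*, *Agrn*, *Lama4*, *Lama5*, *Lamb1*, *Lamb2* and *Lamc1*. They are 10 of the 27998 genes counted in the mouse lung by scRNA-seq. *Tinagl1* was chosen from its higher level in endothelial cells (ECs) of the hyperoxia library. The other 9 were chosen by name as a list of basement membrane genes, with earlier results of these data known. The comparison of ECs between the libraries is therefore the one that picked *Tinagl1*, and its values there are a description.

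The lungs came from wild-type C57BL/6 mice (C57BL/6J in the authors' methods) aged 2 weeks. The room air group breathed 21% O2, and the hyperoxia group breathed 80% O2 from birth to postnatal day 14. Cells of 8 mice were mixed into 1 library per group, so the spread between mice was not measured, no test was possible, and oxygen and library cannot be told apart. The room air library held 4234 cell barcodes with 39593888 UMIs (unique molecular identifiers, each marking 1 captured RNA molecule), and the hyperoxia library 13223 barcodes with 111934936 UMIs. After filtering and removal of likely doublets, 3680 cells of room air (median 8063.5 UMIs) and 10472 cells of hyperoxia (median 7218.5 UMIs) were kept. The libraries shared 17 barcode sequences, of which 12 were among the cells kept.

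Basement membranes are thin sheets of matrix under epithelia and endothelia and around smooth muscle cells and pericytes. Laminins, heterotrimers of an alpha, a beta and a gamma chain, and type IV collagen form separate networks in them, which nidogens and the heparan sulfate proteoglycans perlecan and agrin connect. In the alveolar wall, the basement membranes of the capillary and of the type 1 epithelial cell (AT1) fuse over much of the surface through which gas is exchanged.

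Cell types were rebuilt from marker genes and are called "like" for that reason. Room air gave 999 and hyperoxia 2538 endothelial-like cells, and their 9 endothelial markers, among them *Pecam1*, *Cdh5* and *Cldn5*, summed to 12978 and 12990 CPM (the UMIs of a gene per 1e6 UMIs of all genes in the same cells). Among them, general capillary-like (gCap-like) cells were 585 and 827 in number, aerocyte-like (aCap-like) cells 193 and 1204, and artery-like cells 96 and 151. Different clusters held most of the capillary cells in each library. A gCap-like cluster had 564 cells of room air and 20 of hyperoxia, another 4 and 658. An aCap-like cluster had 113 cells of room air and 8 of hyperoxia, another 8 and 539. A further aCap-like cluster of 31 and 206 cells had few UMIs and the mast cell genes *Tpsb2*, *Cma1* and *Cpa3* as its first leading genes. Of these only *Cpa3* was among the fixed mast cell markers, and the cluster kept its name from 3 fixed aCap markers among its 10 leading genes (*Tbx2*, *Emp2* and *Car4*). Without endothelial clusters of few UMIs the log2 ratio of *Tinagl1* in aCap-like cells was 3.17 in place of 3.20. The artery-like cells formed a single cluster.

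*Tinagl1* (ENSMUSG00000028776) lies on the minus strand at chr4:130164454-130175122 of GRCm38/mm10. In endothelial-like cells its level was 30.7 CPM under room air (95% interval 26.9 to 34.9, 236 UMIs) and 201 CPM under hyperoxia (195 to 207, 4010 UMIs), a ratio of 6.55 (5.74 to 7.50). All intervals cover counting error only. By ratio *Tinagl1* stood at place 13 of the 8345 genes compared, those with a mean of at least 10 CPM over the libraries.

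The 3 endothelial subtypes with at least 50 cells in each library had higher *Tinagl1* in hyperoxia. In gCap-like cells it was 23.3 CPM (19.2 to 28.1) under room air and 231 CPM (220 to 242) under hyperoxia, a ratio of 9.91 (8.17 to 12.1). In aCap-like cells it was 7.02 CPM (3.37 to 12.9, only 10 UMIs) and 64.4 CPM (59.1 to 70.0), a ratio of 9.17 (4.95 to 19.2). In artery-like cells it was 67.7 CPM (51.4 to 87.5) and 580 CPM (542 to 621), a ratio of 8.57 (6.56 to 11.4). In both libraries the artery-like cells were highest of the 3 and the aCap-like cells lowest, with intervals that did not overlap. The size of the arterial ratio depended on which cells were taken as artery-like: on the log2 scale it was 3.099, but 2.08 in cells without a UMI of 6 stromal genes, 2.11 with no doublets removed and 2.19 at clustering resolution 0.5. In aCap-like cells it was 3.20, but 4.67 in the cells without those stromal UMIs. There the room air level was 2.53 CPM, which rests on only a part of the 10 *Tinagl1* UMIs given above.

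The levels in single endothelial clusters are parts of the same values that picked *Tinagl1*, were looked at after these were seen, and are given as a description that supports nothing further. In the gCap-like cluster made mostly of room air cells, *Tinagl1* was 22.6 CPM in the 564 cells of room air and 129 CPM (76.4 to 204) in the 20 cells of hyperoxia. In a gCap-like cluster led by DNA replication genes, which are not among the markers fixed for dividing cells, the 17 cells of room air had 52.1 CPM (22.5 to 103) and the 149 of hyperoxia 271 CPM (245 to 299). Its cells kept the gCap-like name and are part of the gCap-like values above. Each aCap-like cluster had few cells or few *Tinagl1* UMIs in a library. The largest, of 8 and 539 cells, had 11.7 CPM (0.297 to 65.4, 1 UMI) and 79.7 CPM (72.3 to 87.7). In the one of 113 and 8 cells *Tinagl1* was 6.76 CPM and 0, which at this depth allows up to 58.8 CPM, and in the one of few UMIs it was 0, which allows up to 82.4 CPM, and 43.5 CPM, so no difference was detectable in either, nor in the one of 2 and 256 cells, with 0, which allows up to 72.9 CPM, and 32.1 CPM. The one of 39 and 195 cells had a ratio of 6.14 (1.04 to 248) that rests on 1 UMI in room air. Vein-like and lymph-like ECs had under 50 cells in room air. Vein-like cells had 122 CPM (89.0 to 163) under room air and 462 CPM (428 to 499) under hyperoxia, and lymph-like cells 49.8 CPM (21.5 to 98.1) and 196 CPM (149 to 253).

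More ECs carried the transcript in hyperoxia, and those that did carried more of it. At least 1 *Tinagl1* UMI was found in 13.8% of endothelial-like cells of room air (11.7 to 16.1) and in 41.5% of those of hyperoxia (39.6 to 43.4), at median depths of 7120 and 7961 UMIs. With every cell thinned to 2000 UMIs, which left out 141 cells of room air and 406 of hyperoxia, the shares were 4.78% (3.45 to 6.43) and 22.6% (20.8 to 24.4). B-like cells, a type without a basement membrane of its own that served as the background for free RNA, had thinned shares of 0.267% (0.00675 to 1.48) and 1.17% (0.639 to 1.95), at median depths of 4493 and 2918 UMIs before thinning. The endothelial shares were above that of B-like cells under both oxygen levels, but the thinned share of aCap-like cells in room air, 0.709% (0.0180 to 3.89), overlapped it. In hyperoxia the thinned shares followed the order of the subtypes by CPM, with 9.36% of aCap-like, 27.8% of gCap-like and 54.2% of artery-like cells. Before thinning, positive ECs carried a mean of 1.71 *Tinagl1* UMIs in room air and 3.81 in hyperoxia, and the highest cell had 11 and 53.

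**Figure D1:**
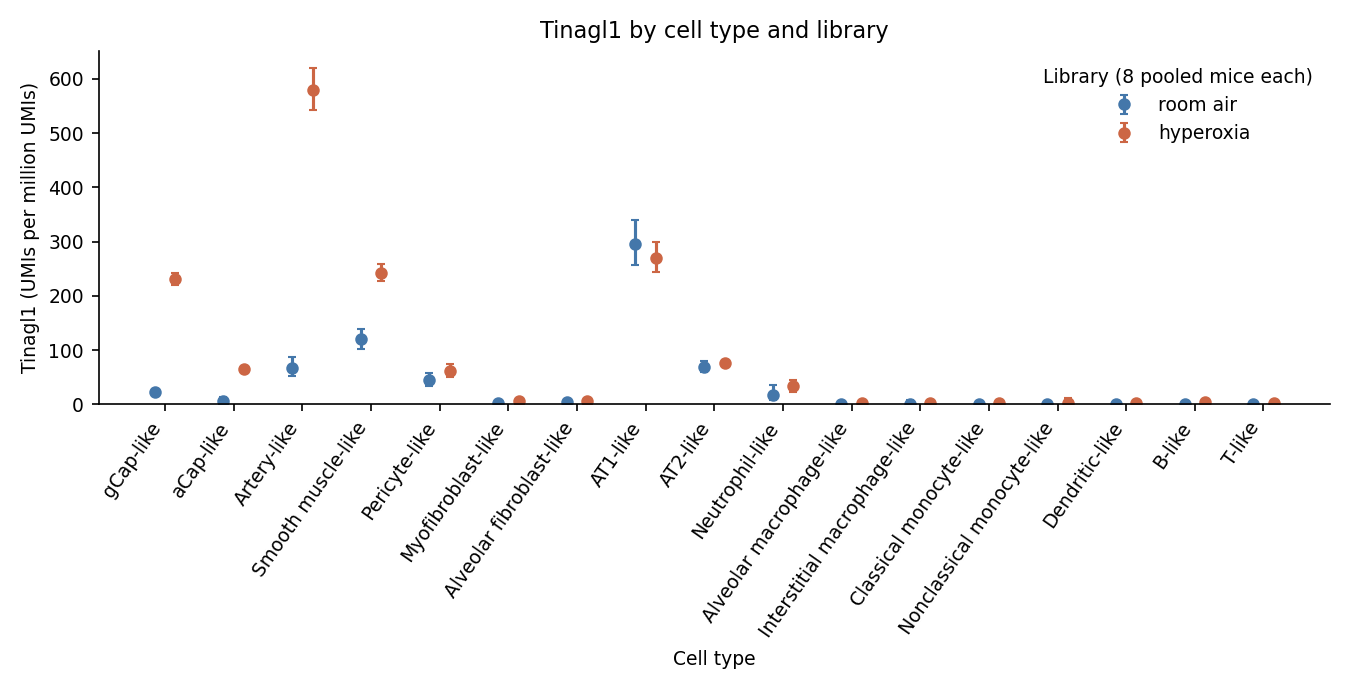
*Tinagl1* level (CPM, linear axis from 0) in each of 17 cell types, with 1 point per library of 8 pooled mice (room air, hyperoxia) and bars for the exact 95% Poisson interval. The points of the libraries lie farthest apart in artery-like and gCap-like cells, less so in smooth muscle-like (120 and 242 CPM) and aCap-like cells (7.02 and 64.4 CPM), and closer together in AT1-like cells, at 296 and 270 CPM.

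Outside the endothelium, *Tinagl1* was found mainly in epithelial, smooth muscle-like and pericyte-like cells. Whether the smooth muscle-like cells were vascular or airway cells was not tested. Among the 17 types with at least 50 cells in each library, which leave out vein-like and lymph-like cells, the order in room air was AT1-like cells at 296 CPM (257 to 340), smooth muscle-like cells at 120 CPM (103 to 139), alveolar type 2-like (AT2-like) cells at 69.2 CPM (59.1 to 80.5), artery-like cells, pericyte-like cells at 44.6 CPM (33.4 to 58.3), gCap-like cells, neutrophil-like cells at 17.6 CPM (7.09 to 36.3) and aCap-like cells. Artery-like cells did not differ beyond counting error from the AT2-like cells above or the pericyte-like cells below them, and neither did neighbours from gCap-like over neutrophil-like and aCap-like cells to the fibroblasts next below. In hyperoxia the artery-like cells came first of these types, followed by AT1-like cells at 270 CPM (244 to 299), smooth muscle-like cells at 242 CPM (226 to 258) and gCap-like cells. The artery-like cells stood above the interval of the AT1-like cells, while the intervals of neighbours among the following types down to gCap-like cells overlapped. AT2-like cells at 75.7 CPM (70.8 to 80.8), aCap-like cells, pericyte-like cells at 61.0 CPM (50.2 to 73.4) and neutrophil-like cells at 32.9 CPM (23.1 to 45.6) came next. The interval of pericyte-like cells overlapped those of AT2-like and aCap-like cells. The other 9 types, fibroblasts, macrophages, monocytes, dendritic cells and lymphocytes, lay between 0 and 4.81 CPM under room air and between 1.71 and 6.17 CPM under hyperoxia. The 0 was that of interstitial macrophage-like cells in room air, whose depth allows up to 5.89 CPM.

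The epithelial ratios were near 1, at 0.912 (0.766 to 1.09) in AT1-like and 1.09 (0.926 to 1.30) in AT2-like cells. In the AT2-like cluster with most of the room air cells (135, and 28 of hyperoxia) *Tinagl1* was 69.6 CPM and 109 CPM, a ratio of 1.57 (1.07 to 2.25). Thinned shares of AT2-like cells were 7.28% (3.69 to 12.7) and 15.01% (12.6 to 17.7) at 2000 UMIs but 5.23% (2.28 to 10.0) and 5.46% (3.98 to 7.29) at 1000 UMIs, so no direction is given there. In pericyte-like cells, which wrap capillaries, the ratio was 1.37 (0.978 to 1.94), and with double the share of doublets removed the log2 ratio was -0.55, so no direction is given. The smooth muscle-like cells had a ratio of 2.02 (1.71 to 2.39), but they were made of a pair of clusters that differed in *Tinagl1* more than the libraries did. The cluster with nearly all of their *Tinagl1* had 38 cells of room air at 352 CPM (301 to 409) and 167 cells of hyperoxia at 467 CPM (438 to 498), a ratio of 1.33 (1.12 to 1.57). The other cluster, with 68 and 162 cells, had 1.07 CPM and 3.73 CPM. With each library clustered alone, the smooth muscle-like cells had 276 CPM under room air and 222 CPM under hyperoxia, so the direction of their difference depended on which cells bore the name. Of all *Tinagl1* UMIs in the cells kept, endothelial-like cells held 24.6% of 960 in room air and 60.0% of 6678 in hyperoxia, and epithelial-like cells 43.3% and 19.7%.

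Among the 10 genes, all of which reached the mean of 10 CPM in endothelial-like cells, 2 were at least 1.5-fold higher in hyperoxia (*Tinagl1* and *Nid2*), where 6.89% of all 8345 genes were, and 0 were at least 1.5-fold lower, where 8.36% were. The median log2 ratio of the 10 was 0.30, against 0.02 for all genes. In gCap-like cells 2 of the 9 genes that reached the minimum were higher (*Tinagl1* and *Lamb1*; 7.14% of all genes) and 0 lower (9.95%). In aCap-like cells 4 of 9 were higher (*Tinagl1*, *Hspg2*, *Lama4* and *Lama5*; 7.38%) and 0 lower (9.09%). In artery-like cells 4 of 9 were higher (*Tinagl1*, *Lama4*, *Lamb1* and *Lamb2*; 14%) and 0 lower (14.9%). *Tinagl1* is in each of these counts by choice, and nothing is read from them. The medians of the 9 were 0.35, 0.54 and 0.46 in gCap-like, aCap-like and artery-like cells, against -0.01, 0.01 and -0.01 for all genes. The 9 leave out *Nid2* in gCap-like and artery-like cells and *Lamb1* in aCap-like cells. Each of these medians, like that of the 10, includes *Tinagl1*, so nothing is read from them either.

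**Figure D2:**
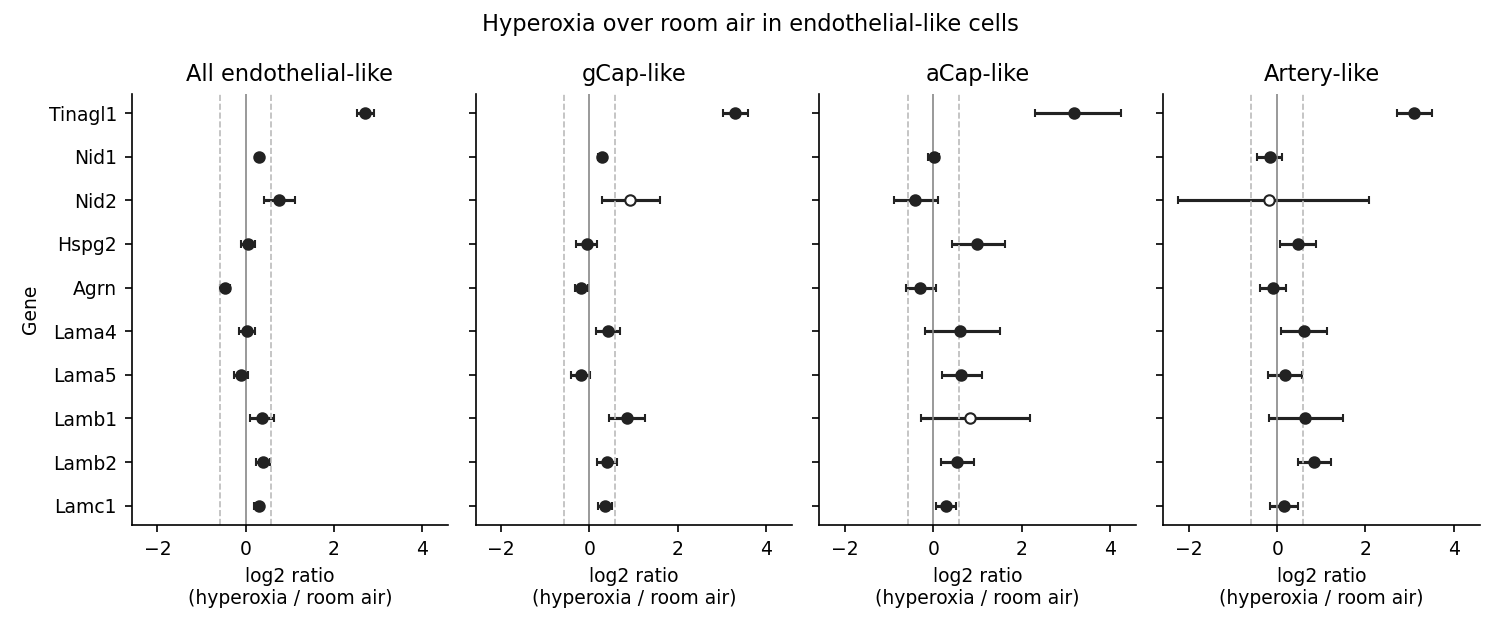
Log2 ratio of hyperoxia over room air for each of the 10 genes in all endothelial-like cells and in 3 subtypes, with bars for the 95% conditional interval, dashed lines at 1.5-fold and open points for a mean under 10 CPM. *Tinagl1* lies between 2.71 and 3.31 in the 4 panels, to the right of every other gene.

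The nidogens, which link laminin to type IV collagen and perlecan, had ratios above 1 in ECs as a whole. *Nid1* was 301 CPM (289 to 314) in endothelial-like cells of room air and 372 CPM (363 to 380) in the hyperoxic ones, a ratio of 1.24 (1.18 to 1.30). Its ratio was 1.22 in gCap-like and 1.01 in aCap-like cells. In artery-like cells the log2 ratio of *Nid1* was -0.18, but 0.59 at clustering resolution 0.5, so no direction is given there. *Nid2* was 10.8 CPM (8.60 to 13.4) in endothelial-like cells of room air and 18.3 CPM (16.5 to 20.3) under hyperoxia, a ratio of 1.70 (1.34 to 2.18). This difference did not appear within aCap-like cells, which had the highest *Nid2* of the 3 subtypes with at least 50 cells in each library, 30.2 CPM (21.9 to 40.7) under room air and 22.7 CPM (19.6 to 26.1) under hyperoxia. The 12 and 36 lymph-like cells had more, 43.6 and 132 CPM, a ratio of 3.02 (1.34 to 8.01). In gCap-like cells (5.72 and 10.8 CPM, a ratio of 1.89, 1.21 to 3.04) and artery-like cells (4.67 and 4.12 CPM) *Nid2* was under the mean of 10 CPM. Since aCap-like cells made up 19.3% of endothelial-like cells in room air and 47.4% in hyperoxia, the hyperoxia values were also weighted to the subtypes of room air, which gave *Nid2* a log2 ratio of 0.53 in place of 0.77, under the 1.5-fold limit, and *Lamb1* one of 0.60 in place of 0.37, past it. In cells with at least 1000 genes and no more than 10% mitochondrial UMIs the log2 ratio of *Nid2* was 0.48, also under the limit.

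Both nidogens were highest in pericyte-like cells among the 17 types. There *Nid1* was 1174 CPM (1114 to 1238) under room air and 947 CPM (902 to 993) under hyperoxia, and *Nid2* 163 CPM (141 to 188) and 105 CPM (91.1 to 121), a ratio of 0.647 (0.527 to 0.794) for *Nid2*. In alveolar fibroblast-like cells, the interstitial fibroblasts of the alveolar wall, *Nid2* was 23.8 CPM and 10.9 CPM, a ratio of 0.457 (0.342 to 0.614). The lower *Nid2* of these fibroblasts stayed past 1.5-fold under all 11 alternatives of processing, that of pericyte-like cells under 3 of 11. Both types were split by library, with 176 and 2 alveolar fibroblast-like cells (room air and hyperoxia) in a cluster and 3 and 701 in another, and 95 and 2 pericyte-like cells in a cluster and 4 and 130 in another.

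Neither proteoglycan was past 1.5-fold in ECs as a whole, though *Agrn* was lower in hyperoxia. *Hspg2*, which encodes perlecan, was 61.1 CPM (room air) and 63.6 CPM (hyperoxia) in endothelial-like cells, a ratio of 1.04 (0.935 to 1.16). In aCap-like cells, which form the thin endothelium next to the alveolar gas, it was 19.0 CPM and 37.8 CPM, a ratio of 1.99 (1.34 to 3.07), and it stayed past 1.5-fold under all 13 alternatives. In AT2-like cells *Hspg2* was lower in hyperoxia, with 26.3 CPM under room air and 12.8 CPM under hyperoxia, a ratio of 0.486 (0.360 to 0.664), also under all 11 alternatives. The AT2-like cells of the libraries fell mostly into different clusters, 135 and 28 cells in the one named above and 4 and 319 in the largest. *Agrn*, which encodes agrin, was 126 CPM (room air) and 91.6 CPM (hyperoxia) in endothelial-like cells, a ratio of 0.725 (0.670 to 0.784). Within subtypes its ratio was nearer to 1, at 0.876 in gCap-like, 0.816 in aCap-like and 0.936 in artery-like cells. In artery-like cells without a UMI of 6 stromal genes its log2 ratio was 0.50, and in gCap-like cells thinned to 2000 UMIs it was 0.095 in place of -0.19. With hyperoxia weighted to the subtypes of room air, its log2 ratio in all ECs was -0.18 in place of -0.46. AT1-like cells had the highest *Agrn* of the 17 types, 550 CPM under room air and 492 CPM under hyperoxia.

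The laminin alpha chains set which receptors a laminin binds, and the alpha 4 and alpha 5 chains are those of the endothelial basement membrane. *Lama4* was 44.6 CPM in endothelial-like cells of room air and 45.8 CPM under hyperoxia, a ratio of 1.03 (0.905 to 1.17), and *Lama5* 63.7 CPM and 59.1 CPM, a ratio of 0.928 (0.834 to 1.03). Both were past 1.5-fold in aCap-like cells, *Lama5* from 33.7 CPM to 52.4 CPM, a ratio of 1.55 (1.15 to 2.14), and *Lama4* from 9.83 CPM to 14.99 CPM, a ratio of 1.52 (0.876 to 2.87) whose interval spans 1. The direction of *Lama4* turned in aCap-like cells when each cell counted alike (log2 ratio -0.56 in place of 0.61), and in artery-like cells without a UMI of 6 stromal genes (-0.39 in place of 0.60).

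Outside the endothelium the alpha chains split by cell type. *Lama4* was highest in pericyte-like cells (473 and 444 CPM, room air and hyperoxia) and *Lama5* in AT1-like cells (194 and 181 CPM). In myofibroblast-like cells, contractile cells of the alveolar septum, *Lama4* was 279 CPM under room air and 147 CPM under hyperoxia, a ratio of 0.527 (0.486 to 0.570), and under all 11 alternatives it was at least 1.5-fold lower. Of these cells 213 of room air and 4 of hyperoxia formed a cluster, 5 and 374 another, and 122 and 220 a mixed one. *Lama5* was higher in pericyte-like cells, at 16.8 CPM and 35.2 CPM, a ratio of 2.09 (1.25 to 3.65). In smooth muscle-like cells it was 53.9 CPM and 102 CPM, but 106 CPM and 102 CPM with each library clustered alone.

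The beta chains are alternatives in the trimer, and the gamma 1 chain, which binds nidogen, is shared by most laminins. In endothelial-like cells *Lamb1* was 20.02 CPM (room air) and 25.8 CPM (hyperoxia), a ratio of 1.29 (1.07 to 1.55), *Lamb2* 56.8 CPM and 74.8 CPM, a ratio of 1.32 (1.18 to 1.47), and *Lamc1* 119 CPM and 147 CPM, a ratio of 1.23 (1.14 to 1.32). All 3 log2 ratios stayed above 0 under the 15 alternatives run for ECs. Past 1.5-fold were *Lamb1* in gCap-like cells, 14.8 CPM and 26.6 CPM, a ratio of 1.80 (1.36 to 2.39), and *Lamb2* in artery-like cells, 98.0 CPM and 175 CPM, a ratio of 1.79 (1.39 to 2.31). *Lamb1* in artery-like cells had a ratio of 1.54 (0.875 to 2.81) whose interval spans 1. The stricter filter on genes and mitochondrial UMIs took both of the others back under the limit, to a log2 ratio of 0.05 for *Lamb1* in gCap-like cells and 0.21 for *Lamb2* in artery-like cells. In AT2-like cells *Lamb1* was lower in hyperoxia, with 45.4 CPM under room air and 17.7 CPM under hyperoxia, a ratio of 0.391 (0.308 to 0.497), between cells that fell mostly into different clusters.

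**Figure D3:**
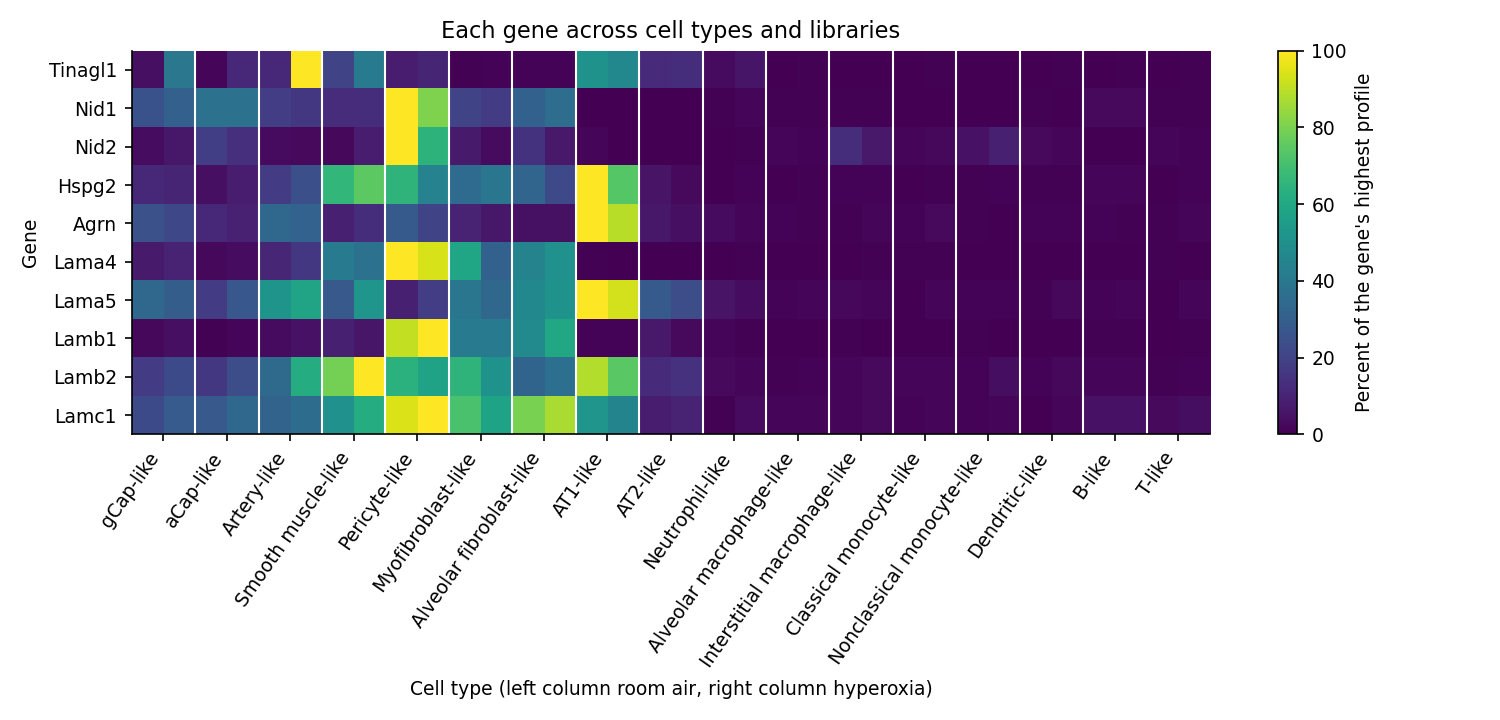
Level of each of the 10 genes in 17 cell types, as percent of that gene's highest profile (color scale 0 to 100), with room air in the left and hyperoxia in the right column of each type. *Nid1*, *Nid2*, *Lama4*, *Lamb1* and *Lamc1* peak in pericyte-like cells, *Hspg2*, *Agrn* and *Lama5* in AT1-like cells, *Lamb2* in smooth muscle-like cells and *Tinagl1* in artery-like cells of hyperoxia.

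The 10 genes were also counted in stromal and epithelial cells as lineages. In stromal-like cells 1 of 10 was higher (*Tinagl1*, 23.3 and 39.8 CPM; 5.23% of all genes) and 1 lower (*Nid2*, 32.5 and 21.2 CPM; 5.23%). Their median log2 ratio was -0.05, against 0.00 for all genes. In epithelial-like cells 7 of the 10 reached the mean of 10 CPM, of which 0 were higher (6.55% of all genes) and 2 lower (*Hspg2* and *Lamb1*; 10.0%). Their median was -0.14, against 0.06 for all genes. These shares rest on few genes, and the *Tinagl1* of stromal-like cells is mostly that of the smooth muscle-like cells described above.

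Other genes of the basement membrane were counted in endothelial-like cells from lists. Of 8 basement membrane collagens, 4 reached 10 CPM and 2 of them were at least 1.5-fold higher. For this and the following lists, 6.89% of all genes were higher and 8.36% lower. *Col4a1*, a chain of type IV collagen and the most abundant of the list, was 2146 CPM under room air and 3298 CPM under hyperoxia, a ratio of 1.54, and *Col18a1*, the source of endostatin, 15.1 CPM and 47.2 CPM, a ratio of 3.13 (2.58 to 3.83). Of 13 other components 6 reached 10 CPM. *Npnt* (ratio 2.09), *Ntn4* (1.82) and *Egflam* (1.60) were higher, *Hmcn1*, which encodes hemicentin 1, was lower at 348 and 167 CPM (0.478), and the most abundant, *Sparc*, was 2333 and 2781 CPM. *Egflam* was not higher within aCap-like cells, where it was highest of the 3 subtypes (64.6 and 54.4 CPM). These cells made up more of the ECs in hyperoxia, and the part of subtype makeup in the endothelial ratio of *Egflam* was not tested. *Ntn4* had a ratio of 1.11 in aCap-like, 2.24 in gCap-like and 2.54 in artery-like cells. *Npnt* was past 1.5-fold in artery-like cells (23.3 and 96.8 CPM) and under 10 CPM in gCap-like (6.57 and 8.71 CPM) and aCap-like cells (7.73 and 9.65 CPM). Vein-like cells had 94.9 and 133 CPM of *Npnt*, a ratio of 1.40 (0.976 to 2.08), and lymph-like cells 43.6 and 236 CPM. The B-like cells that served as background had 7.82 and 25.2 CPM, and the part of free RNA in the endothelial ratio of *Npnt* was not tested. *Hmcn1* had a ratio of 0.385 in aCap-like (116 and 44.6 CPM), 0.612 in gCap-like and 0.867 (0.746 to 1.01) in artery-like cells. Of 12 receptor genes 10 reached 10 CPM, with *Itga3*, the integrin alpha 3 chain that binds laminin, higher (81.9 and 145 CPM), *Itga1*, the alpha 1 chain that binds collagen, lower (259 and 132 CPM), and *Itgb1* the most abundant (1016 and 1363 CPM). *Itga3* was not past 1.5-fold within gCap-like (57.9 and 65.2 CPM), aCap-like (217 and 263 CPM) or artery-like cells (24.5 and 35.0 CPM). Of 8 enzymes and chaperones 6 reached 10 CPM and 1, the gelatinase *Mmp2*, was higher (18.9 and 35.9 CPM), while *Serpinh1*, the collagen chaperone, was most abundant (476 and 480 CPM). *Mmp2* was under a mean of 10 CPM in gCap-like (7.42 and 11.7 CPM) and aCap-like cells (7.02 and 9.88 CPM) and past 1.5-fold in artery-like cells (16.3 and 81.7 CPM). The 35 and 113 vein-like cells had more *Mmp2* than these, 222 and 272 CPM, a ratio of 1.22 (0.960 to 1.57). The 12 and 36 lymph-like cells had 6.23 and 23.6 CPM of *Mmp2*. In B-like cells it was 4.599 and 14.8 CPM, and the part of free RNA was not tested here either. None of 6 further laminin chains reached 10 CPM, the most abundant being *Lama1* at 5.46 and 4.86 CPM. The median log2 ratios were 0.56 for the collagens, 0.47 for the other components, 0.15 for the receptors and 0.01 for the enzymes, against 0.02 for all genes.

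The profile of *Tinagl1* over 34 profiles (17 cell types in each library, log2 of CPM + 1) was most like those of *Gata6* (Pearson r 0.88), *Rai14* (0.84), *Bcam* (0.84), *Agrn* (0.84) and *Clu* (0.83) among 7808 genes. Of the other 9 genes, *Lama5* had an r of 0.79, *Lamb2* 0.76 and *Nid2* 0.01. Over the 6 profiles of 3 endothelial subtypes, the 5 most like it were *Luzp1* (0.995), *Trak2* (0.993), *Colgalt1* (0.987), *Pdlim1* (0.984) and *Nus1* (0.978) among 4637 genes. These points share 2 libraries, and many genes reach a high r over 6 points. The ratios between the libraries were smaller for these 5 genes than for *Tinagl1*, between 1.18 (*Nus1* in artery-like cells) and 1.53 (*Pdlim1* in aCap-like cells) over the 3 subtypes.

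RNA of other cell types and the response to dissociation were measured in the same endothelial-like cells. Of 8 stromal markers 4 were higher in hyperoxia, with sums of 185 CPM under room air and 187 CPM under hyperoxia, none at 0 and *Mfap4* the most abundant (68.4 and 63.3 CPM). Of 8 pericyte markers 2 were higher, with sums of 26.5 and 17.6 CPM, none at 0 and *Cox4i2* the most abundant (5.59 and 3.86 CPM). The summed stromal RNA was thus about the same in both libraries and the summed pericyte RNA lower in hyperoxia. Of 7 epithelial markers 5 were higher, with sums of 371 and 520 CPM, none at 0 and *Sftpc* the most abundant (337 and 488 CPM). *Tinagl1* of endothelial-like cells had a log2 ratio of 2.70 in place of 2.71 when the level of the B-like cells was subtracted, and of 2.55 in the 382 and 868 cells without a UMI of 6 stromal genes. In artery-like cells, where the median log2 ratio of all genes was -0.01, all 8 stromal markers were higher in hyperoxia, with sums of 142 and 233 CPM. Their part in the arterial ratios was not tested beyond the cells without stromal UMIs. Of 12 genes of the response to tissue dissociation 11 had a log2 ratio above 0 in endothelial-like cells, as had 4332 of all 8345 genes. Of the 12, 2 were at least 1.5-fold higher (*Fosb* and *Zfp36*), with sums over the list of 5946 and 6754 CPM, a median log2 ratio of 0.26 (0.02 for all genes) and *Jun* the most abundant (1327 and 1516 CPM). In artery-like cells 3 of the 12 were at least 1.5-fold higher (*Fos*, *Fosb* and *Egr1*; 14% of all genes), with sums of 6489 and 8649 CPM and a median log2 ratio of 0.41 (-0.01 for all genes). Their part in the values of the 10 genes was not tested.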

How the data were processed

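The authors counted UMIs with Cell Ranger on mm10 and deposited them as raw counts, a matrix of genes by barcodes. The sources differ on its version (6.1.1 in the labels' protocol, 2.1.1 in the processing notes, 3.1.0 in the matrix headers). Barcodes needed 500 or more genes and no more than 20% mitochondrial UMIs (345 and 1026 barcodes had too few genes, and 80 and 486 more too many mitochondrial UMIs, in room air and hyperoxia). Doublets were scored against simulated ones, 2 per cell, and removed up to 0.8% per 1000 barcodes (129 and 1239 cells). Counts scaled to 10000 per cell, 2000 variable genes, 30 components and 20 neighbours gave Leiden clusters (resolution 1, seed 1), and each lineage was clustered again. The 69 genes of the lists did not enter the clustering. A cluster took the name with the highest marker score (share of markers raised, times their mean log2 rise; at least 3 raised, each in 5% of cells and 0.5 above the other clusters in log2) and stayed unnamed where its 10 leading genes held as many fixed markers of another type or lineage as of its own (more, for lineages), 2 or more of dividing cells, or none of its own at low UMIs. This naming rule was changed 2 times after the clusters had been seen.

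CPM are sums of UMIs over the cells of a type. Levels have exact Poisson, shares Clopper-Pearson and ratios conditional intervals (95%), and a count of 0 was read as up to 3. The calculation of ratios and their intervals was tested on simulated data. The text names the 10 genes in types with at least 50 cells per library, list genes past 1.5-fold or most abundant in ECs, and the 5 genes most like *Tinagl1* (at least 50 CPM in 1 profile). Vein-like and lymph-like cells, single clusters and the subtype ratios of these 5 fall outside this rule and were chosen after their values were seen. The members and lists were chosen with earlier results of these data known. Alternatives changed doublets, filters, resolution, clustering, scaling (edgeR TMM factors), depth, background and subtype makeup. Coordinates are from GENCODE vM21. Tools were Python 3.11.15, numpy 2.4.6, scipy 1.17.1, pandas 2.3.3, scikit-learn 1.9.0, igraph 0.11.9, leidenalg 0.10.2, matplotlib 3.10.9 and edgeR 4.0.16.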

Additional observations from a re-analysis of the deposited data

How the results depend on the processing

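The log2 ratio of *Tinagl1* in endothelial-like cells, 2.71, lay between 2.48 and 3.02 under 15 alternatives and was outside its counting interval under 2 of them: 2.48 with double the share of doublets removed, where the cause was not tested, and 3.02 with hyperoxia weighted to the subtypes of room air, which gives fewer aCap-like cells, the subtype lowest in *Tinagl1*. In gCap-like cells it lay between 3.29 and 3.77, in aCap-like cells between 3.17 and 4.67 and in artery-like cells between 2.08 and 3.50. The 4.67 rests on few *Tinagl1* UMIs in room air. The number of the 10 genes at least 1.5-fold higher in ECs was 2. It was 1 with a minimum of 50 CPM, which leaves *Nid2* out, and 1 with 1000 or more genes and no more than 10% mitochondrial UMIs. It was 3 in cells without stromal UMIs, where *Lamb1* joined, and with the subtypes of room air it was 2 with *Lamb1* in place of *Nid2*. The number at least 1.5-fold lower was 0 under every alternative run. Of the ratios of single genes by cell type, 1089 stayed within their interval, 120 moved out of it and 4 of those past 1.5-fold reversed: *Lama4* in artery-like cells without stromal UMIs (-0.39) and in aCap-like cells by the mean over single cells (-0.56), and *Lama5* (-0.044) and *Tinagl1* (-0.32) in smooth muscle-like cells with each library clustered alone. Of the 120, 35 changed sign from a ratio under 1.5-fold, among them *Nid1* in artery-like cells under 4 alternatives (up to 0.59) and, with double the share of doublets removed, *Hspg2* (-0.15) and *Lama4* (-0.24) in ECs. The cause was not tested for these, *Lama4* and *Lama5*. The alternatives without clusters of low UMIs and without unnamed clusters were chosen after seeing the data. No paired analysis was possible because each group is 1 library.

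With 1 library per group, intervals leave out the spread between mice and between preparations. Room air has the fewer cells, with 193 aCap-like and 96 artery-like cells. Capillary, AT2-like, alveolar fibroblast-like, myofibroblast-like and pericyte-like cells of the libraries fell mostly into different clusters, so the names group cells that also differ by library.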

Other observations

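The type IV collagen gene *Col4a1* went opposite ways among the endothelial subtypes. *Col4a1* was 2483 CPM under room air and 3934 CPM under hyperoxia in gCap-like cells, a ratio of 1.58 (1.55 to 1.62), and 2274 CPM and 3659 CPM in aCap-like cells, a ratio of 1.61 (1.55 to 1.67). In artery-like cells it was 1147 CPM and 284 CPM, a ratio of 0.248 (0.220 to 0.278), and *Col4a2*, which is transcribed from the same locus in the other direction, was 627 CPM and 129 CPM, a ratio of 0.206 (0.174 to 0.244). *Col15a1* was 64.2 CPM and 5.49 CPM there, a ratio of 0.0856 (0.0352 to 0.181), while *Col18a1* was 26.8 CPM and 164 CPM, a ratio of 6.11 (3.98 to 9.83). Less abundant type IV chains were higher there, *Col4a4* at 3.50 CPM and 22.0 CPM, a ratio of 6.28 (1.96 to 32.0), and *Col4a5* at 5.84 CPM and 17.9 CPM, a ratio of 3.06 (1.16 to 10.2). In gCap-like cells *Col15a1* was 80.1 CPM under room air and 89.2 CPM under hyperoxia, and the part of capillary RNA in the arterial values was not tested. The artery-like cells had more *Tinagl1* and *Col18a1* and less *Col4a1* and *Col4a2* RNA in hyperoxia. Higher *Col18a1* was not particular to them. In aCap-like cells *Col18a1* was 3.51 CPM and 44.9 CPM, a ratio of 12.8 (5.43 to 39.6), and in vein-like cells 86.8 CPM and 70.5 CPM. The 35 and 113 vein-like cells had more *Col4a1* in hyperoxia, a ratio of 2.89 (2.47 to 3.39), and more *Col4a2*, 3.46 (2.72 to 4.45). These collagen genes were picked after their values were seen and were not run under the alternatives. The arterial values rest on 96 and 151 cells.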
